A study of Sus scrofa with 9 samples.

Results

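Collagens, laminins, nidogen and integrins, the proteins that build the extracellular matrix under the endothelium and the receptors that hold cells to it, were followed in cultured endothelial cells of the pig coronary artery. Members were all probe sets to which the platform annotation gave exactly 1 gene symbol, where that symbol was a collagen chain, a laminin chain, an integrin subunit, a nidogen or perlecan. The rule found 58 probe sets for 32 genes, out of 6765 genes named by 1 symbol. A gene with several probe sets, as 16 of the members were, was represented by its brightest probe set, and the others served as a check. The name pattern also took in ITGB1BP2, which encodes a protein that binds an integrin and is not an integrin itself. COL1A1, COL4A1, COL6A1, COL18A1, LAMA4, LAMA5, NID1, HSPG2, ITGA1, ITGA3, ITGA4, ITGAL and ITGB4 had no probe set under this rule and were not analysed here. Sequences and genome positions of the members are not given, because no sequence was at hand and the files name no genome build.

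Expression was measured on 9 Affymetrix porcine arrays in 3 groups of 3, with no genetic change or drug in any group. Passage 1 cells, the controls, had spent 1 week in culture. Passage 4 cells had been passaged each week, and the labels call them senescent. Regenerated cells had regrown in the living animal after the lining of the artery was scraped away, and were then harvested and cultured without further passage. Labelled cRNA was made from 1 ug of RNA at passage 1 and passage 4, while the regenerated group used 0.5 to 1 ug, so RNA input and group cannot be told apart. Whether the 3 arrays of a group stem from different animals or cultures is not stated in the labels, so the p-values measure the spread between these arrays only, which may be technical.

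Collagens are triple helices of 3 alpha chains. Fibrillar collagens such as types I, III and V form the fibres of the vessel wall, with type V helping to set fibre diameter, whereas type IV collagen forms the sheet-like scaffold of the basement membrane on which the endothelium sits. Laminins are cross-shaped trimers of an alpha, a beta and a gamma chain, and nidogens link the laminin network to type IV collagen. Integrins are dimers of an alpha and a beta subunit that bind these proteins outside the cell and the actin cytoskeleton inside it. The alpha V subunit joins beta 1, beta 3 or beta 5, and these receptors bind proteins such as vitronectin and fibronectin.

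The values were array signals on a linear scale with no read depth behind them, and the number of arrays limits their precision. The mean of each array, trimmed at both ends, was 500.1, and arrays of 1 group had correlations of 0.937 to 0.974 over probe sets, which are not independent replicates. The bacterial spike-ins dap and thr have probe sets near each end of the transcript, and their 5′ minus 3′ log2 difference divided the arrays. It was -1.98 in passage 1 array 1 and from -2.1 to -1.78 at passage 4, against -4.84 and -4.24 in passage 1 arrays 2 and 3 and from -5.26 to -4.31 in the regenerated arrays. The sides of this division are called labelling kinds here, a name that rests on the spike-ins alone and not on a label. Passage 4 and regenerated arrays were therefore never of the same labelling kind. Each of them shared a kind with part of the passage 1 group, passage 4 with array 1 alone and regenerated cells with arrays 2 and 3. Every value of passage 4 against passage 1 fitted within kinds or with the kind as a block thus rests on 1 passage 1 array. Its p-value cannot measure the spread of that group within the kind. For members, values fitted within kinds are given where they change a call. For marker and list genes no such values are given, so whether their calls hold within kinds is not shown. The endothelial markers PECAM1 and CDH5, both junction proteins, stood at 7894 ± 759 and 9727 ± 979 at passage 1, 8453 ± 964 and 9184 ± 703 at passage 4, and 6981 ± 1267 and 10190 ± 1431 in regenerated cells (SD, n = 3). The probe sets of VWF and KDR, other defining endothelial genes, were at 52.1 or less and 23.6 or less on every array. Of 13 tested endothelial markers, 0 rose and 1 fell at passage 4 against passage 1 (NOS3, the endothelial nitric oxide synthase), and 1 rose and 1 fell in regenerated cells (ENG, a TGF-beta co-receptor, and CLDN5, a tight junction protein). Over all tested probe sets 4.79% passed at passage 4 against passage 1 and 5.49% in regenerated cells against passage 1.

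Among markers of other cell types, several of fibroblasts were higher in the regenerated group. Of 6 tested fibroblast markers, 4 were higher than at passage 1 past the threshold (LUM, THY1, FAP and ASPN) and 0 were lower. Of all tested probe sets 2.98% were higher and 2.51% lower in this comparison. The summed signal of the 9 fibroblast markers with a probe set was 6154 to 7352 in regenerated cells, 1198 to 3227 at passage 1 and 1191 to 1711 at passage 4. Of that sum FBLN1 alone gave 2697 to 4409 in regenerated cells, and it did not pass against passage 1 in limma (adjusted p = 0.0774). All 6 tested markers were on the higher side, but LUM was at 660, 30.1 and 1014 in the regenerated arrays. DCN, which encodes decorin, was at 21.1 to 54.5 in regenerated cells. Its mean was highest at passage 4, at 127 against 40.4 in regenerated cells and 35.1 at passage 1. Of the same 9 markers, DPT, TCF21 and MFAP5 were not tested. Their means were 18.1, 4.49 and 25.7 in regenerated cells against 23.0, 12 and 65.8 at passage 1. Smooth muscle markers summed to 34652 to 48868 in regenerated cells, 18539 to 39279 at passage 1 and 19490 to 35884 at passage 4, with 1 of 8 tested (SMTN) higher in regenerated cells than at passage 1 past the threshold. The median log2 difference of the 8 was 0.70, and 7 were on the higher side. ACTA2, smooth muscle actin, was at 10021 to 18924 in regenerated cells, 196 to 13189 at passage 1 and 485 to 10501 at passage 4. CNN1, calponin 1, was lower at passage 4 than in regenerated cells (log2 -2.53, adjusted p = 0.0325 in limma). It was the 1 of 8 tested markers past the threshold there, beside 12.5% of all tested probe sets. TPM2 went the other way (log2 0.83) and did not pass. Labelling kind and group cannot be told apart in that comparison. DES, MYLK and MYOCD were dim and not tested, at 47.6 or less on every array. Leukocyte markers summed to 4650 to 7286 over all arrays, most of it from LAPTM5, and PTPRC was at 25.8 or less, with 0 of 2 tested past the threshold in limma and 0 at an unadjusted p under 0.05. The part of these other cells in the results on regenerated cells was not tested.

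**Figure D1:**
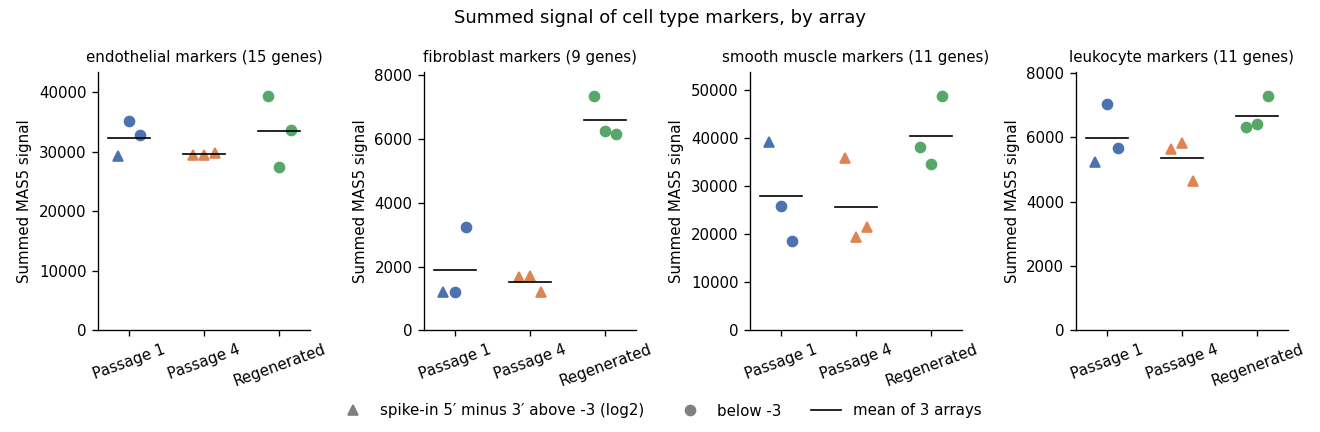
Summed linear signal of endothelial, fibroblast, smooth muscle and leukocyte markers on each of the 9 arrays, by group; triangles are arrays with the smaller 5′ to 3′ spike-in difference and circles the others, with a line at the group mean. Fibroblast markers lay between 6154 and 7352 in the regenerated arrays and at 3227 or less elsewhere, while the endothelial sums of the groups overlapped.

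Of the 32 members, 17 had a brightest probe set above the filter on dim signals (at least 3 of 9 arrays above their own 40th percentile) and were tested. The threshold was an adjusted p under 0.05 in limma, adjusted over all 15299 tested probe sets. Differences are on the log2(signal + 16) scale, which understates changes of dim genes. In regenerated cells 2 collagens, 1 laminin chain and 2 integrin subunits were higher than at passage 1, and 1 integrin subunit was lower there and at passage 4. Between passage 4 and passage 1, 2 of 17 members passed, 1 higher at passage 4 (ITGAV) and 1 lower (ITGB3), which is 11.8% of the members beside 4.79% of all tested probe sets (2.71% higher, 2.08% lower). In regenerated cells against passage 1, 6 of 17 passed, with COL5A1, COL8A1, LAMB1, ITGAV and ITGB5 higher and ITGB3 lower, which is 35.3% beside 5.49% of all tested probe sets (2.98% higher, 2.51% lower). At passage 4 against regenerated, 3 of 17 passed, all lower at passage 4 (COL5A1, COL8A1 and ITGB5), which is 17.6% beside 12.5% of all tested probe sets (8.14% higher, 4.35% lower). The median log2 difference of the 17 members was 0.04 at passage 4 against passage 1, 0.31 in regenerated against passage 1 and -0.34 at passage 4 against regenerated, beside 0.04, -0.01 and 0.01 over all tested probe sets. The comparisons of passage 4 and of regenerated cells with passage 1 share the 3 passage 1 arrays and are not independent.

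**Figure D2:**
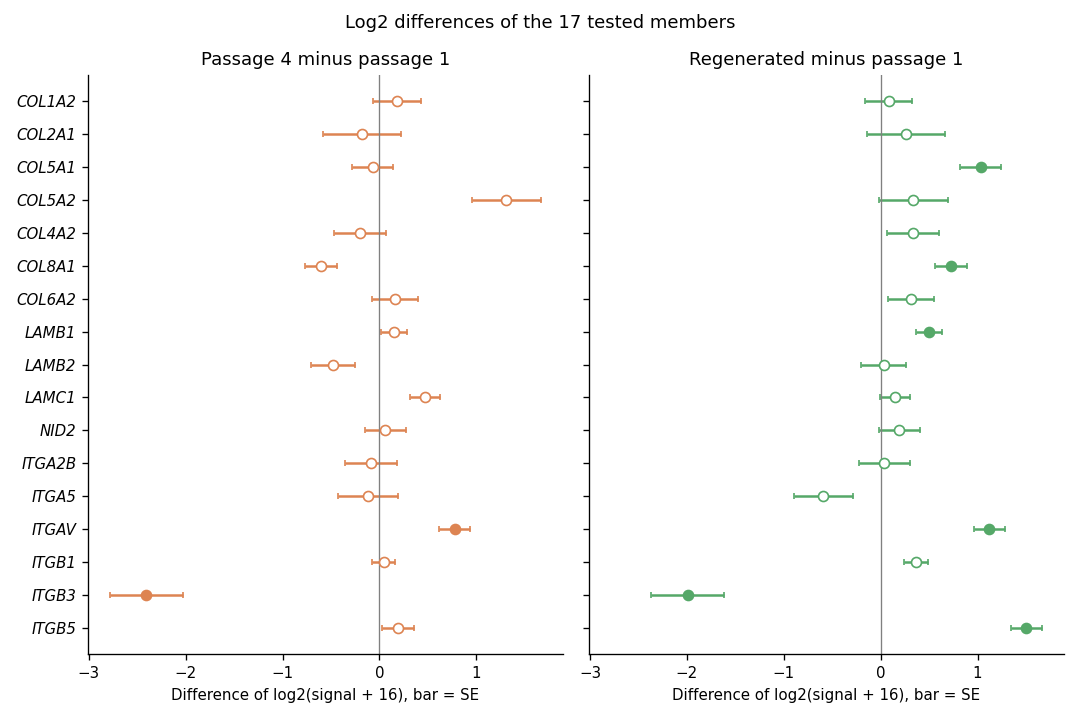
Log2 difference (± SE from the fit, n = 3 arrays a group) of the 17 tested members for passage 4 minus passage 1 and regenerated minus passage 1; filled points have an adjusted p under 0.05. In regenerated cells 6 points are filled, 5 of them above 0, and at passage 4 only ITGAV (0.78) and ITGB3 (-2.41) are.

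Among the fibrillar collagens, COL5A1, the chain that makes up most of type V collagen, was at 3535, 3690 and 2990 in the passage 1 arrays, 4059, 2195 and 3787 at passage 4, and 6730, 7503 and 6682 in regenerated cells. All 3 regenerated arrays lay above every other array, while passage 1 and passage 4 overlapped. COL5A1 rose in regenerated cells from 3405 ± 368 to 6972 ± 460 (SD, n = 3), by 1.03 in log2 units (SE 0.21, 2.05-fold, adjusted p = 0.0173). Its level at passage 4, 3347 ± 1007, gave a log2 difference of -0.07 from passage 1 (adjusted p = 0.9). Passage 4 was lower than regenerated by a log2 difference of -1.10 (SE 0.21, adjusted p = 0.00791). The rise missed the threshold without passage 1 array 3, regenerated array 2 or regenerated array 3, with adjusted p of 0.0605, 0.0744 and 0.0526. With the labelling kind as a block it was 1.06 (adjusted p = 0.0318), and the difference of passage 4 from regenerated was -1.19 (adjusted p = 0.165).

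The other probe sets of COL5A1 bear on how far that rise holds. The second brightest was at 1868, 2816 and 1617 at passage 1, 2804, 1676 and 2520 at passage 4, and 4486, 3518 and 3800 in regenerated cells. It was again higher in all 3 regenerated arrays, by 0.93 in log2 units (SE 0.24, adjusted p = 0.0438), and by 0.87 with the labelling kind as a block (adjusted p = 0.0814). The next one was dim, at 97.1 to 127 at passage 1 and 54.2 to 207 in regenerated cells, and gave -0.08 (adjusted p = 0.943). Of the 6 probe sets of the gene, 4 were tested and 2 passed.

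COL5A2, the partner chain of type V collagen, was dim. Its signals were 69.2, 41.0 and 83.2 at passage 1, 178, 296 and 106 at passage 4, and 77.7, 72.2 and 101 in regenerated cells. The 3 passage 4 arrays lay above all others, yet the difference from passage 1, 1.31 in log2 units (SE 0.35), had an adjusted p of 0.0576. It passed only without passage 4 array 3, at 1.65 (adjusted p = 0.0445), and was 1.19 with the labelling kind as a block (adjusted p = 0.342). A second probe set gave 0.91 (SE 0.28, adjusted p = 0.0876), with its passage 4 arrays at 64.6 to 91.7 and its passage 1 arrays at 25.2 to 43.6.

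Type I and type III collagens are the fibre formers that fibroblasts and smooth muscle cells make in quantity. On its brightest probe set COL1A2 was at 161 ± 35.4 in the passage 1 arrays, 183 ± 33.2 in those of passage 4 and 169 ± 19.7 in the regenerated ones, with log2 differences from passage 1 of 0.18 (SE 0.24) and 0.08 (SE 0.24) that did not pass. Its other probe set was dim and not tested, at 1.57 to 8.62 at passage 1, 1.67 to 18.9 at passage 4 and 17.4 to 20.8 in regenerated cells. COL3A1 was at 9.56 to 33.4 on every array and was not tested. COL2A1, the cartilage collagen, was tested at 21.7 to 131 and passed in no comparison.

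Of the network collagens, COL8A1 was the one that changed. It encodes a short-chain collagen of blood vessel walls and of the membrane under the corneal endothelium. Its signals were 4249, 4580 and 3817 at passage 1, 3146, 2657 and 2505 at passage 4, and 8513, 5998 and 6644 in regenerated cells. The 3 groups did not overlap, with passage 4 lowest, passage 1 between and regenerated cells highest. COL8A1 rose in regenerated cells from 4215 ± 383 to 7052 ± 1306, by 0.73 in log2 units (SE 0.16, 1.66-fold, adjusted p = 0.0262). At passage 4 it was at 2769 ± 335, a log2 difference of -0.61 from passage 1 (SE 0.16) whose adjusted p of 0.0575 missed the threshold. Between passage 4 and regenerated cells the log2 difference was -1.33 (SE 0.16, 0.397-fold, adjusted p = 0.00118).

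The COL8A1 rise was near the threshold and missed it in 6 of 21 alternatives. Among these were the fits without passage 1 array 3 (adjusted p = 0.0848), without regenerated array 1 (0.0527) and without regenerated array 3 (0.0651), and the fit on arrays of 1 labelling kind (0.74, adjusted p = 0.0951). The difference of passage 4 from regenerated had an adjusted p of 0.0831 with the labelling kind as a block. The 3 other probe sets of COL8A1 were dimmer, and for regenerated cells against passage 1 they gave log2 differences of 0.66, 0.74 and 0.58, of which 0 passed in limma (adjusted p = 0.168, 0.29 and 0.261). With the labelling kind as a block they gave 0.86, 1.28 and 0.79, and the middle one passed (adjusted p = 0.0776, 0.0162 and 0.127). For passage 4 against passage 1 they gave 0.01, 0.46 and 0.67, which is not the sign of the brightest probe set, and again 0 passed (adjusted p = 0.986, 0.585 and 0.218). The block turned the first of these to -0.39 and the next to -0.62, the sign of the brightest probe set, and left the last at 0.26, with 0 past the threshold (adjusted p = 0.689, 0.437 and 0.829).

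COL4A2, a chain of the type IV collagen of basement membranes, varied more within groups than between them. Its signals were 3143, 3658 and 3075 at passage 1, 2543, 2202 and 4149 at passage 4, and 4009, 2974 and 5991 in regenerated cells. All groups overlapped, and the log2 differences from passage 1 were -0.20 at passage 4 and 0.34 in regenerated cells (SE 0.27 each, adjusted p = 0.748 and 0.505). COL6A2, a chain of the beaded-filament type VI collagen, was dim, at 92.6 ± 5.57, 106 ± 18.2 and 119 ± 16. It gave 0.31 in regenerated cells (SE 0.24, adjusted p = 0.486). Across the 7 tested collagens, 2 were higher past the threshold in regenerated cells than at passage 1 and 0 were lower, with a median log2 difference of 0.34. That is 28.6% called, beside 5.49% of all tested probe sets (2.98% higher, 2.51% lower). At passage 4 against passage 1 none of the 7 passed in limma, beside 4.79% of all tested probe sets. Of the 7, 2 had an unadjusted p under 0.05 there, and the median was -0.07.

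**Figure D3:**
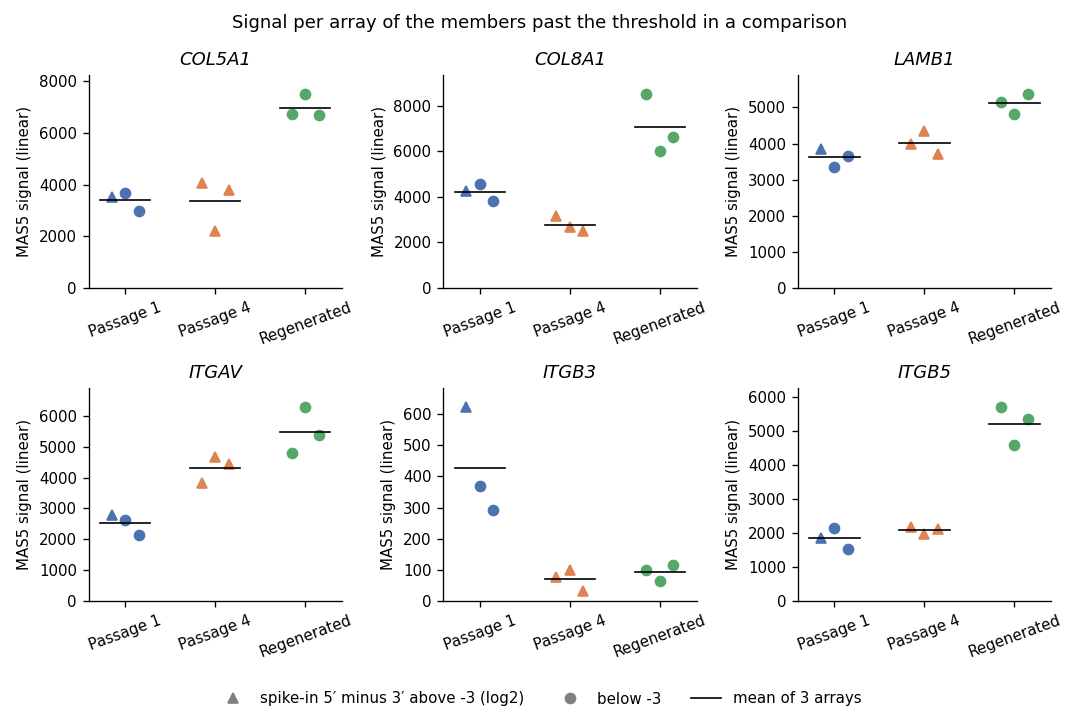
Linear signal on each of the 9 arrays of the 6 members that passed in at least 1 comparison, with a line at the group mean; triangles are arrays with the smaller 5′ to 3′ spike-in difference and circles the others. The regenerated arrays lie above all passage 1 arrays for COL5A1, COL8A1, LAMB1, ITGAV and ITGB5, and passage 4 and regenerated arrays lie below all passage 1 arrays for ITGB3.

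The laminin chains and nidogen were all tested, and 1 of 4 passed. It did so in regenerated cells against passage 1 only, which is 25% beside 5.49% of all tested probe sets. LAMB1, the beta 1 chain shared by many laminin trimers, was at 3859, 3343 and 3642 at passage 1, 3991, 4338 and 3715 at passage 4, and 5163, 4820 and 5368 in regenerated cells. The regenerated arrays lay above all others. LAMB1 rose there from 3615 ± 259 to 5117 ± 277, by 0.50 in log2 units (SE 0.13, 1.42-fold, adjusted p = 0.0483). Passage 4, at 4015 ± 312, gave 0.15 against passage 1 (adjusted p = 0.599) and -0.35 against regenerated (adjusted p = 0.103). The rise lost the threshold in 15 of 21 alternatives, with adjusted p up to 0.138, and was 0.55 with the labelling kind as a block (adjusted p = 0.0536) and 0.50 with a replicate block (adjusted p = 0.0985).

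A second probe set of LAMB1 placed the regenerated group differently, lowest of the groups by mean and not highest. It was at 817, 264 and 268 at passage 1, 1014, 1123 and 980 at passage 4, and 308, 143 and 104 in regenerated cells. Passage 4 was higher than regenerated by a log2 difference of 2.52 (SE 0.43, adjusted p = 0.00529), and regenerated against passage 1 gave -1.14 (SE 0.43, adjusted p = 0.148). Its values followed the labelling kind: passage 1 array 1 and the passage 4 arrays were at 817 to 1123, and the other 5 arrays at 104 to 308. On the brightest LAMB1 probe set passage 1 array 1 was 3859, against 3343 and 3642 in the other passage 1 arrays. With the labelling kind as a block the second probe set gave 0.96 for passage 4 against regenerated (SE 0.56, adjusted p = 0.392) and -0.62 for regenerated against passage 1 (SE 0.35, adjusted p = 0.302), so neither passed and the signs stayed.

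For LAMC1, the gamma 1 chain that joins most laminin trimers, the probe sets also differed among themselves. On its brightest probe set it was at 3816, 3109 and 3203 at passage 1, 4927, 5005 and 4111 at passage 4, and 3234, 4084 and 3945 in regenerated cells. Passage 4 lay above the other groups without overlap, but the log2 difference from passage 1, 0.47 (SE 0.15), did not pass (adjusted p = 0.111) and was 0.29 with the labelling kind as a block (adjusted p = 0.626). The dimmest of its 4 tested probe sets was at 524 in passage 1 array 1 and 466 to 572 at passage 4, against 39.3 and 90.9 in passage 1 arrays 2 and 3 and 193 to 236 in regenerated cells. It gave 1.90 at passage 4 against passage 1 (SE 0.61, adjusted p = 0.104), which became 0.02 with the labelling kind as a block (SE 0.37, adjusted p = 0.989). In that fit regenerated cells were higher than passage 1 by 1.61 (SE 0.29, adjusted p = 0.0126), against 0.67 without the block (SE 0.61, adjusted p = 0.557). Its passage 1 arrays thus spread along the labelling kind, as for the second LAMB1 probe set.

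**Figure D4:**
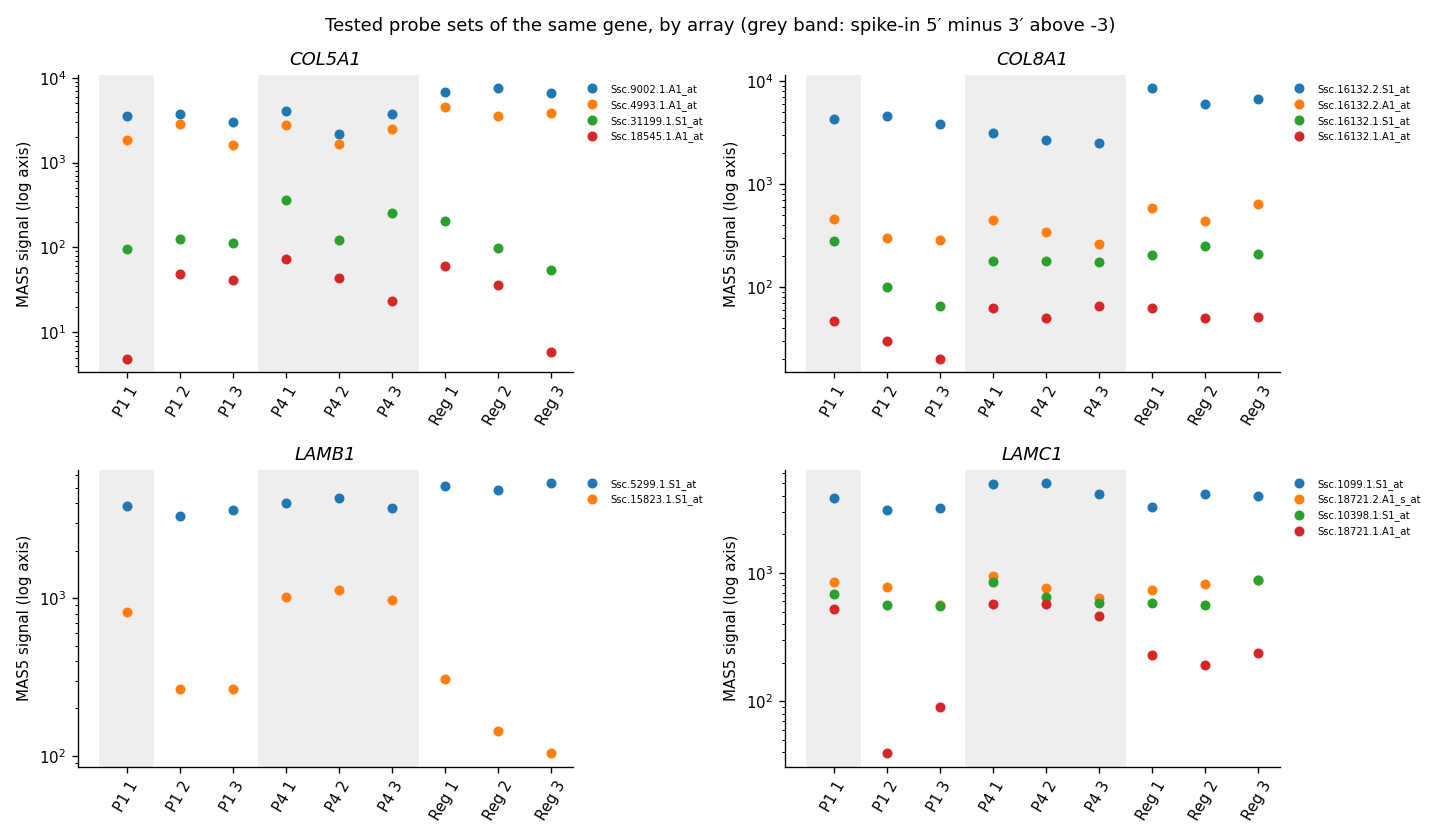
Signal (log axis) of the tested probe sets of COL5A1, COL8A1, LAMB1 and LAMC1 on each of the 9 arrays; grey bands mark the arrays with the smaller 5′ to 3′ spike-in difference. The second LAMB1 probe set and the dimmest LAMC1 probe set are high in the grey bands, at 817 to 1123 and 466 to 572, and lower elsewhere, while the brightest probe sets of both genes vary far less.

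LAMB2, the beta 2 chain found in vascular basement membranes, was at 657 ± 153 in the passage 1 arrays, 461 ± 74.3 in those of passage 4 and 662 ± 90.6 in the regenerated ones. It passed in no comparison, and its log2 difference at passage 4 went from -0.48 (SE 0.23, adjusted p = 0.28) to -0.07 with the labelling kind as a block. NID2, which encodes nidogen 2, was at 3260 ± 645, 3428 ± 811 and 3727 ± 685, with log2 differences from passage 1 of 0.06 and 0.19 (SE 0.21 each) that were within the spread between arrays.

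Among the integrins, 3 of 6 tested subunits passed in at least 1 comparison. By comparison, 2 of 6 passed at passage 4 against passage 1 and 3 of 6 in regenerated cells against passage 1. At passage 4 against regenerated 1 of 6 passed. These shares are 33.3%, 50% and 16.7%, beside 4.79%, 5.49% and 12.5% of all tested probe sets. ITGAV encodes the alpha V subunit. It was at 2782, 2630 and 2133 at passage 1, 3834, 4657 and 4427 at passage 4, and 4809, 6273 and 5372 in regenerated cells. The groups did not overlap, with passage 1 lowest. ITGAV rose at passage 4 from 2515 ± 339 to 4306 ± 424, by 0.78 in log2 units (SE 0.16, 1.71-fold, adjusted p = 0.0214). In regenerated cells it rose to 5485 ± 738, by 1.12 (SE 0.16, 2.17-fold, adjusted p = 0.00298). The difference between passage 4 and regenerated cells was -0.34 (SE 0.16) and did not pass (adjusted p = 0.18). The rise in regenerated cells held in all 21 alternatives, from 1.01 to 1.21. The rise at passage 4 was lost in 7, among them the labelling kind as a block (0.62, adjusted p = 0.255), and without passage 1 array 2, passage 1 array 3, passage 4 array 2 or passage 4 array 3 (adjusted p = 0.0599, 0.0596, 0.0849 and 0.0906).

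ITGB3, the beta 3 subunit, which pairs with alpha V in endothelial cells and with alpha IIb in platelets, moved the other way. It was at 622, 370 and 294 at passage 1, 77.6, 99.4 and 31.3 at passage 4, and 100, 64.2 and 114 in regenerated cells. Every passage 4 and regenerated array lay below every passage 1 array. ITGB3 fell at passage 4 from 429 ± 172 to 69.4 ± 34.8, a log2 change of -2.41 (SE 0.38, 0.188-fold, adjusted p = 0.00551). In regenerated cells it fell to 92.8 ± 25.8, a log2 change of -1.99 (SE 0.38, 0.251-fold, adjusted p = 0.0128). Passage 4 and regenerated cells differed by -0.42 (SE 0.38, adjusted p = 0.511). The lowest value, 31.3, was under the 40th percentile of its array, 49.2, so the size of the fall is measured against dim signal.

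ITGB3 was also lower than at passage 1 within each labelling kind, and whether labelling took part in the falls was not tested. Within kinds the fall at passage 4 was -3.0, measured against passage 1 array 1 alone, the highest passage 1 array for this gene. In regenerated cells the fall was -1.70, against passage 1 arrays 2 and 3 (adjusted p = 0.0308 in limma with the labelling kind as a block). The fall at passage 4 passed in all 21 alternatives, from -3.0 to -1.87, and the fall in regenerated cells in 20, missing without regenerated array 2 (adjusted p = 0.0643). ITGA2B, the alpha IIb partner known from platelets, was at 49.5 to 79.7 on every array and passed in no comparison.

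ITGB5, the beta 5 subunit and another partner of alpha V, changed in regenerated cells. Its signals were 1838, 2155 and 1521 at passage 1, 2163, 1973 and 2118 at passage 4, and 5687, 4591 and 5360 in regenerated cells. The regenerated arrays stood far above the other 6, which overlapped. ITGB5 rose in regenerated cells from 1838 ± 317 to 5213 ± 563, by 1.5 in log2 units (SE 0.16, 2.84-fold, adjusted p = 0.000856). At passage 4, at 2084 ± 99.4, it differed from passage 1 by 0.19 (SE 0.16, adjusted p = 0.586) and from regenerated by -1.31 (SE 0.16, adjusted p = 0.00122). The rise held in all 21 alternatives, from 1.38 to 1.63. The difference of passage 4 from regenerated was -1.33 with the labelling kind as a block (adjusted p = 0.0838), a fit in which these groups are linked through passage 1 alone.

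The subunits of alpha V receptors thus had different patterns on the same arrays: ITGAV was higher than passage 1 in both other groups, ITGB3 lower in both, and ITGB5 higher past the threshold in regenerated cells, with passage 4 below regenerated by the test above. ITGB1, the beta 1 subunit that most matrix-binding integrins share, was at 7367, 7590 and 7192 at passage 1, 7431, 7648 and 7758 at passage 4, and 9939, 8294 and 10405 in regenerated cells. The regenerated arrays were the highest, but the log2 difference from passage 1, 0.36 (SE 0.12), did not pass (adjusted p = 0.104). At passage 4 the difference was 0.04 (SE 0.12, adjusted p = 0.887).

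ITGA5, the alpha subunit of the classical fibronectin receptor, varied most within passage 1. It was at 1193, 2873 and 2387 at passage 1, 1993, 1940 and 1656 at passage 4, and 1767, 952 and 1404 in regenerated cells. Passage 1 array 1 was the lowest control array, and it is the one of the other labelling kind. The log2 differences from passage 1 were -0.12 at passage 4 (SE 0.31, adjusted p = 0.882) and -0.59 in regenerated cells (SE 0.31, adjusted p = 0.29). With the labelling kind as a block they became 0.63 (adjusted p = 0.414) and -0.97 (adjusted p = 0.0454), and the latter estimate was the same without passage 1 array 1 (adjusted p = 0.0451) and among arrays of 1 labelling kind, where it did not pass (adjusted p = 0.0944).

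The brightest probe sets of the other 15 members lay below the filter and were not tested. Their signals ran from 0.569 to 185, and 13 of the 15 never exceeded 50.4. COL15A1, a basement membrane zone collagen of vessels, was at 1.56, 0.841 and 0.569 at passage 1, 46.3, 9.11 and 1.06 at passage 4, and 185, 55.1 and 10 in regenerated cells. ITGA2, the alpha subunit of a collagen receptor, was at 15.8, 11.4 and 9.36 at passage 1, 12, 4.46 and 15.8 at passage 4, and 84.1, 47.1 and 6.30 in regenerated cells. In both genes 2 of the 3 regenerated arrays were higher than all others and the remaining one was not. COL6A3, another type VI collagen chain, was at 26.3 or less, and ITGA6, the laminin receptor subunit, at 19.2 or less. The leukocyte integrin subunits ITGAM and ITGB2 were at 19.9 or less and 50.4 or less on their brightest probe sets. With no detection calls among the values used here, such signals give no lower or upper bound on the transcript.

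The enzymes and carriers that make collagen were read from a separate list, of which 13 genes were tested. At passage 4 against passage 1, 0 were higher past the threshold and 1 was lower. PLOD3, a lysyl hydroxylase that modifies collagen chains, fell from 1761 ± 349 to 982 ± 103, a log2 change of -0.82 (SE 0.19, adjusted p = 0.0345). In regenerated cells 1 rose and 0 fell: SEC23A, a coat protein of the vesicles that carry procollagen out of the endoplasmic reticulum, went from 2354 ± 336 to 3813 ± 759, by 0.68 (SE 0.18, adjusted p = 0.0499). Against regenerated cells, 4 of the 13 were lower and 1 higher at passage 4. In this comparison labelling kind and group cannot be told apart, which also holds for the lists below. The largest of these differences was that of FKBP14, a collagen-folding isomerase of the endoplasmic reticulum, at 1147 ± 125 against 2962 ± 313 (log2 -1.36, SE 0.21, adjusted p = 0.00326). PLOD3 was also lower at passage 4 (log2 -0.92, SE 0.19, adjusted p = 0.0104), as was SEC23A (log2 -0.66, SE 0.18, adjusted p = 0.0326). The higher one was TMEM38B, an ion channel of the endoplasmic reticulum, at 1083 ± 276 against 584 ± 71.3 (log2 0.85, SE 0.24, adjusted p = 0.038). The medians over the list were -0.20, 0.05 and -0.39 in the 3 comparisons. Of all tested probe sets 4.79%, 5.49% and 12.5% passed in these, which also stands beside the counts of the lists below.

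Of the adhesion machinery that ties integrins to actin, 13 genes were tested, among them those of talin, vinculin and filamin (TLN1, VCL and FLNA), and 0 passed in any comparison in limma, with 3 at an unadjusted p under 0.05 in each. The medians were 0.09, 0.31 and -0.35. Among 5 other matrix receptors, SDC2, the heparan sulfate carrier syndecan 2, rose in regenerated cells from 1340 ± 929 to 5243 ± 937, by 2.15 in log2 units (SE 0.41, adjusted p = 0.0128). CD47, an integrin-associated receptor for thrombospondin, fell there from 2862 ± 546 to 1766 ± 70.1, a log2 change of -0.68 (SE 0.16, adjusted p = 0.0353). At passage 4 none of the 5 passed against passage 1 in limma, and 1 had an unadjusted p under 0.05. Against regenerated cells, passage 4 was lower in SDC2 (log2 -2.20, adjusted p = 0.0071) and higher in CD47 (log2 0.61, adjusted p = 0.0304).

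Other basement membrane proteins had 3 tested genes. SPARC, a collagen-binding matricellular protein, rose in regenerated cells from 10499 ± 743 to 14187 ± 515, by 0.44 in log2 units (SE 0.11, adjusted p = 0.0419). Against passage 1, passage 4 had none of the 3 past the threshold in limma and 1 at an unadjusted p under 0.05. All 3 were lower at passage 4 than in regenerated cells. TINAGL1, a tubulointerstitial nephritis antigen-like matrix protein, was at 170 ± 84.0 against 855 ± 239 (log2 -2.32, SE 0.47, adjusted p = 0.00968), and FBLN1, fibulin 1, at 1023 ± 200 against 3334 ± 936 (log2 -1.67, SE 0.41, adjusted p = 0.0214). FBLN1 also stood on the fibroblast marker list, and passage 1 array 3 had 2879 of it against 754 and 908 in the other passage 1 arrays.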

How the data were processed

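RNA of 9 samples, 3 at passage 1, 3 at passage 4 and 3 regenerated, was measured on 1 array each. The deposited values are linear intensities, 1 for each probe set, which the authors made with MAS5 per the submitters' processing notes. For its version and scaling target, nothing is given in the sources used here. The trimmed mean (2% at each end) was equal on all arrays, so no further normalization was done. Of 24123 probe sets, 124 control probe sets were left out, and the filter on dim signals left 15299. By the platform annotation, 10099 probe sets had 1 symbol, 198 had several and 13826 had none. Probe sets with several symbols, 2 of them matching the member pattern, were not used. All 32 members were found in RefSeq's gene table of Sscrofa11.1.

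All 9 arrays were fitted as log2(signal + 16) in limma 3.58.1 under R 4.3.3 (lmFit, eBayes with an intensity trend), with 6 residual and 5.65 prior degrees of freedom. P-values were two-sided and adjusted by Benjamini-Hochberg over all tested probe sets. The scripts were tested on simulated data. An exact permutation test of 3 arrays against 3 cannot go below p = 0.1 and was not used. Arrays were divided by labelling kind at the largest gap in the spike-in 5′ minus 3′ difference of log2(signal + 16), a division found in earlier work on these data. The members, the gene lists, the marker lists and the alternatives were chosen with earlier results of these data known. Members passing in any comparison are named with every array, other members of a fixed panel with group values, and list genes where they passed, at most the 4 largest in a list and comparison.

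Alternatives were other pseudocounts, filters, scalings and variance models, only the arrays compared, a replicate block, labelling kind as a block or by selection, other probe sets of a gene, members without the integrin-binding protein, and each array left out. Replicate numbers did not pair the arrays: deviations of same-numbered arrays from their group means correlated with r from -0.138 to 0.186 over 9 pairs of arrays.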

Additional observations from a re-analysis of the deposited data

Results flagged for a closer look

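For 3 members the change from passage 1 differed between passage 4 and regenerated cells. The passage 1 arrays cancel in this comparison, so passage 4 against regenerated is itself the test of that difference. For COL5A1 the passage 4 minus regenerated log2 difference was -1.10, with 3 of 3 passage 4 arrays below every regenerated array. Its other tested probe sets gave -0.78, 1.00 and 0.42, and none passed in limma (adjusted p = 0.0539, 0.153 and 0.655). For COL8A1 the difference was -1.33, again with 3 of 3 below. The other COL8A1 probe sets gave -0.64, -0.29 and 0.09 and did not pass (adjusted p = 0.129, 0.676 and 0.871). ITGB5, with 1 probe set, gave -1.31, also with 3 of 3 below. These 3 members were flagged by their call in this same comparison, so the lack of overlap is no separate support. None of the 3 passed in limma with the labelling kind as a block, where the differences were -1.19, -1.36 and -1.33 (adjusted p = 0.165, 0.0831 and 0.0838). Labelling kind and group cannot be told apart directly here, because no passage 4 array shares a kind with a regenerated array.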

How the results depend on the processing

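All 11 calls on members kept their direction in every alternative fitted on the same probe set, and 3 of them also kept the threshold in all of these: the ITGB3 fall at passage 4 and the ITGAV and ITGB5 rises in regenerated cells. Many alternatives could not change the direction. The filters, variance models, replicate block, only the arrays compared and leaving out an array of the third group keep the log2 difference and alter only its p-value. The alternatives are thus not independent checks. The least stable call was the LAMB1 rise, and on the second LAMB1 probe set the same comparison had the opposite sign, -1.14, and did not pass. Of 40 results that did not pass, 37 passed in no alternative, and COL5A2 and COL8A1 at passage 4 and ITGA5 in regenerated cells passed in 1 or 2 of theirs. The cause of these changes was not tested. At passage 4 against passage 1 the count of members past the threshold, 2, became 1 with no intensity trend, with the labelling kind as a block and with arrays of one labelling kind, and 0 of 5 with the second brightest probe set (2 at an unadjusted p under 0.05 in limma). Leaving out each array gave 1 to 3, with 1 without passage 1 array 2 or 3 or passage 4 array 2, and 3 without regenerated array 1. In regenerated cells against passage 1 the count of 6 became 3 with the mean over a gene's probe sets and 1 of 5 with the second brightest, and leaving out each array gave 3 to 6, with 3 without passage 1 array 3 or regenerated array 2 or 3 and 4 without regenerated array 1. The count of 3 at passage 4 against regenerated stayed 3 with each array left out. For regenerated cells against passage 1 the labelling block also gave 6, with LAMB1 lost and ITGA5 gained as a fall. Arrays of one labelling kind gave 4 in that comparison, with COL8A1 and LAMB1 lost. No intensity trend and only the 6 arrays compared also gave 4 each. At passage 4 against regenerated the count of 3 became 0 with the labelling kind as a block (4 at an unadjusted p under 0.05) and 1 of 5 with the second brightest, which is the LAMB1 probe set and higher at passage 4. With a replicate block the counts were 2, 5 and 3. Over all probe sets the labelling block left 150, 926 and 35 calls in the 3 comparisons, of 733, 840 and 1912, arrays of one labelling kind left 312 and 501 in the comparisons with passage 1, and the replicate block 549, 554 and 1626. Leaving out each array gave 244 to 1403, 291 to 1238 and 895 to 2406. No value within a labelling kind exists for passage 4 against regenerated. Signals near the filter limit what can be said of dim members.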
